A study of Mus musculus with 8 samples.

Results

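Transcripts of 10 circadian clock genes (Per1, Per2, Per3, Arntl, Clock, Npas2, Nr1d1, Dbp, Hlf and Tef) were measured in the cortex and hippocampus of mice lacking Tet1 (KO) and of wild-type (WT) mice. The genes were chosen by name, and every non-control probe carrying one of these symbols was taken. This gave 12 probes out of 39429 on the array, and 10 genes out of 22898 with a symbol and 16358 tested. The TET1 enzyme converts 5-methylcytosine in DNA to 5-hydroxymethylcytosine. The 4 groups were KO cortex, WT cortex, KO hippocampus and WT hippocampus, with 2 samples each, from naive mice of a 129 C57BL6 background. Each KO sample was labelled with Cy5 and shared 1 of 4 arrays with a WT sample of the same tissue labelled with Cy3, and dyes were not swapped, so genotype and dye cannot be told apart in any comparison of KO with WT. The sources used here give neither the time of day of tissue collection, nor the part of Tet1 removed, nor whether replicates are separate animals. The spread behind each p-value is therefore that of these 8 samples, and may be technical.

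The mammalian clock is a transcriptional feedback loop that runs in nearly every tissue, the cortex and hippocampus included. Arntl (also called Bmal1) pairs with Clock or with its paralogue Npas2, and the pair binds E-box sequences and activates the Per and Cry genes, Nr1d1 and Dbp. PER and CRY proteins then repress the activators, and NR1D1 (REV-ERBα) represses Arntl, so transcripts of Arntl and of the E-box-driven genes run out of phase over the day. Dbp, Hlf and Tef encode the PAR bZIP factors, which carry the rhythm to output genes through D-box sequences.

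The probes that the results turn on are shown first, because some genes had a second probe and some were near the detection limit. Positions are those the array files give on mm9, and each line holds the first 30 bases of a probe of 60, with no capitals because no part is singled out. The position of the Nr1d1 probe spans 503 bases, longer than the probe itself. Exons and untranslated regions were not annotated here, for want of an annotation of that build.
Dbp, first probe, chr7:52965461-52965520, plus strand: tggggaacccatccatccaaccgcctccat
Dbp, second probe, chr7:52965322-52965381, plus strand: atggccagtggtctggccagctaggtgccc
Hlf, chr11:90200696-90200755, minus strand: ccgtgtttctcatcctctgtttgcttttga
Nr1d1, chr11:98630526-98631028, minus strand: ggcacctttgaggtgctgatggtgcgcttt
Npas2, chr1:39418941-39419000, plus strand: agatgggatgaagcgtttacgtgattttgg
Per1, first probe, chr11:68923364-68923423, plus strand: gtgttctcagctctaccctctaccaatgac
Per1, second probe, chr11:68919895-68919954, plus strand: ttagtgtttcagggcagtagaggtggccgg
Per3, chr4:150379256-150379315, minus strand: ggctctttccttaagatctgtcagctagcc

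Promoter sequence from RefSeq (GRCm38.p6) was searched for the elements of the loop, in windows of 250 bases before to 50 bases after each annotated start. Windows were given for 9 of the 10 genes, 14 windows in all, and none was given for Per2. On both strands the search covered the E-box CACGTG, the variant E-box CACGTT, the D-boxes TTATGTAA and TTACGTAA, the ROR element as TAGGTCA or TGGGTCA, and the cAMP response element TGACGTCA. Among all 32851 windows, 7.15% held the E-box, 4.68% the variant E-box, 1.06% a D-box, 6.45% a ROR element and 1.79% the cAMP response element. No element shared letters with another in the windows of the clock genes. The windows of Npas2, Clock and Dbp held none of these letters. E-boxes lay at -166 from one of the Per1 starts and at -127 and -138 from the Tef starts, and the Per3 window held the D-box TTATGTAA at -205 and at -158. The 250 bases before the start are shown for Per1, Nr1d1 and Hlf, which had a matched element there and were among the 5 genes with the highest cortex over hippocampus values below, and 30 bases around the ROR element for Arntl, where that element lay 31 bases into the transcript. Capitals mark the matched letters (an E-box in Per1, the variant E-box read on the other strand at -28 in Nr1d1, the cAMP response element at -9 in Hlf and the ROR element in Arntl), and a match is a description of these letters and not a bound site.
Per1, chr11:69098699-69098948, plus strand: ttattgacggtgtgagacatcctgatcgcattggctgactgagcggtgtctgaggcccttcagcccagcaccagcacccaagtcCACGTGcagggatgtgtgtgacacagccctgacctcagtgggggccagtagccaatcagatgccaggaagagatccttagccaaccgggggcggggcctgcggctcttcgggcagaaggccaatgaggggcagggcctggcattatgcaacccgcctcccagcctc
Nr1d1, chr11:98775378-98775627, minus strand: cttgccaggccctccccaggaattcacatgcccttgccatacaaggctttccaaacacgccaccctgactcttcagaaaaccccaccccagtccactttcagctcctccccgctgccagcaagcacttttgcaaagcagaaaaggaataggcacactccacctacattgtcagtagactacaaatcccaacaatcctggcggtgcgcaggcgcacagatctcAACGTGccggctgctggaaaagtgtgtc
Hlf, chr11:90390918-90391167, minus strand: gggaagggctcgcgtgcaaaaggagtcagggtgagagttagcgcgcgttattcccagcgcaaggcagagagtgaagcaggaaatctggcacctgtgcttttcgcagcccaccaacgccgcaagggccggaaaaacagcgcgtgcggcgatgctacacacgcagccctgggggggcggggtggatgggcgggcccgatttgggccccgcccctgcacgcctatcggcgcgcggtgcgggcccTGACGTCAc
Arntl, chr7:113207529-113207558, plus strand: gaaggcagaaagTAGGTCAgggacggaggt

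Levels are normalised log2 signals of single channels, and tissues were compared within a genotype, where both tissues carried the same dye. In all 8 samples 8 of the 10 genes were well above background. Npas2 was above background in all 4 KO samples and in WT cortex but in neither WT hippocampus sample, and Per3 was above background in the 4 KO samples and in none of the 4 WT samples. The second Per1 probe was above background in no sample and was not tested. All 10 genes passed the filter on dim probes, which required both samples of at least 1 group to be well above background. In the KO channel 66.6% to 67.2% of spots exceeded background, and in the WT channel 49.7% to 51.7%, and negative control spots had medians of 79.3 to 80.8 intensity units in the KO channel and 247 to 263 in the WT channel. With 4 arrays in all, their number sets the precision.

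The tissue labels were set against marker genes. Cortex markers had a median cortex minus hippocampus difference of 1.34 (log2) in KO and 1.38 in WT, with 6 of 7 higher in cortex in each genotype. Hippocampus markers had medians of -1.60 in KO and -1.64 in WT, with 6 of 7 lower in cortex in KO and 7 of 7 in WT. Striatum markers were higher in cortex for 7 of 7 genes in both genotypes, with a median of 2.60 in KO and 2.61 in WT, and their summed log2 level was 17.04 to 17.09 in KO cortex, 17.25 to 17.53 in WT cortex, 14.21 to 14.76 in KO hippocampus and 14.51 to 14.74 in WT hippocampus. Choroid plexus markers varied between samples of one group. Their summed log2 level ran from 16.81 to 17.5 in KO cortex, 12.88 to 16.54 in WT cortex, 12.41 to 14.31 in KO hippocampus and 12.16 to 18.04 in WT hippocampus, and 8 of 8 were higher in cortex in KO against 1 of 8 in WT. In each of these 4 lists 5 or more genes were well above background in all samples, so no list was at 0. In bulk tissue, fewer cells of a type and less RNA per cell cannot be told apart, and the part of dissection in the values below was not tested. The Tet1 probe had a KO over WT log2 ratio of -0.18 ± 0.05 (SE of the limma fit, n = 4 arrays, adjusted p = 0.0804), which does not check the labels, since the removed part is not given.

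Across the genotypes, 3 of the 10 clock genes were higher in cortex than in hippocampus. Hlf was higher by 0.55 ± 0.07 (log2, SE of the limma fit over all 8 samples, adjusted p = 0.00158), Nr1d1 by 0.41 ± 0.06 (adjusted p = 0.0023) and Npas2 by 0.38 ± 0.06 (adjusted p = 0.00425, with WT hippocampus not well above background). A gene passed where its Benjamini-Hochberg adjusted p over all genes was under 0.05, and none of the 10 passed as lower. Of all genes tested, 22.9% passed in this comparison, 10.9% higher and 11.9% lower. Within KO, 3 of 10 were higher (Hlf, Nr1d1 and Npas2) against 15.1% of all genes called (7.73% higher and 7.35% lower), and within WT, 2 of 10 were higher (Hlf and Npas2) against 15.2% called (7.35% higher and 7.84% lower). At an unadjusted p under 0.05 the counts were 5 in KO and 3 in WT, where 28.5% of all genes in KO and 29% in WT were under it. The median difference of the 10 genes was 0.23 in KO and 0.15 in WT, where the median of all genes tested was -0.01 in KO and -0.02 in WT. The 3 genes come from different arms of the loop: an activator, a repressor and a PAR bZIP output factor.

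**Figure D1:**
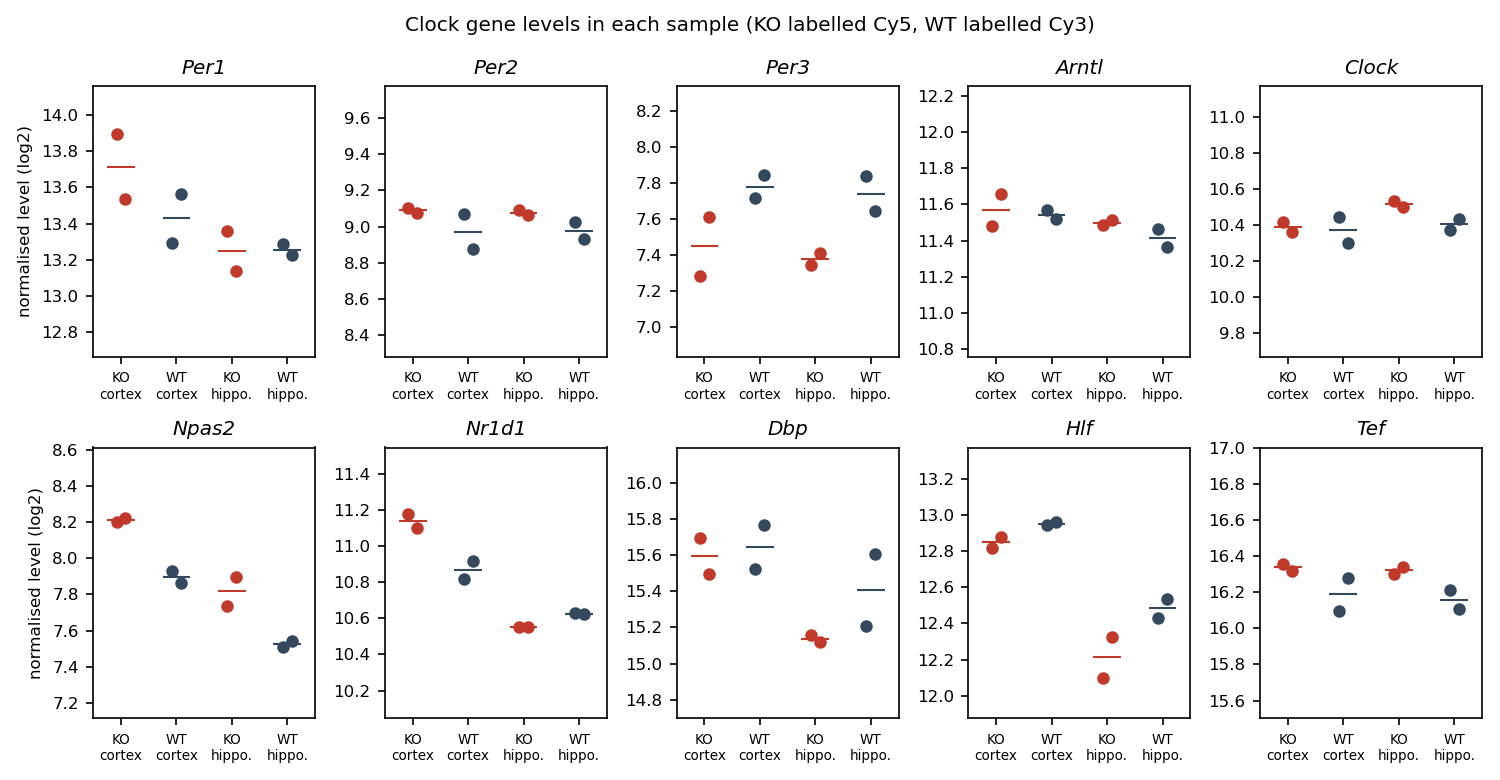
Normalised log2 level (vertical axis, every panel spanning the same range of 1.5) of each clock gene in every sample, for KO cortex, WT cortex, KO hippocampus and WT hippocampus. Points are the 2 samples of a group and bars their mean, and the cortex samples of Hlf, Npas2 and Nr1d1 lie above the hippocampus samples of their own genotype.

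Hlf, the PAR bZIP factor first known as a fusion partner in human leukaemia, had log2 levels of 12.82 and 12.88 in KO cortex, 12.94 and 12.96 in WT cortex, 12.10 and 12.32 in KO hippocampus, and 12.43 and 12.54 in WT hippocampus. Within each genotype the cortex samples lay above the hippocampus samples with no overlap. The difference was 0.64 ± 0.09 in KO, a 1.55-fold change (limma, adjusted p = 0.00419), and 0.47 ± 0.09 in WT, a 1.38-fold change (limma, adjusted p = 0.0145). Over the 4 fits that left out an array the difference ran from 0.52 to 0.75 in KO and from 0.42 to 0.52 in WT. Without cortex replicate 1 (0.67 in KO and 0.48 in WT) or without cortex replicate 2 (0.60 in KO and 0.46 in WT) neither genotype passed on its own, while the difference over both genotypes passed in all 4 fits (0.47 to 0.64).

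Dbp, the founding PAR bZIP factor and among the most rhythmic transcripts of many tissues, had log2 levels on its brighter probe of 15.69 and 15.50 in KO cortex, 15.52 and 15.77 in WT cortex, 15.16 and 15.12 in KO hippocampus, and 15.21 and 15.61 in WT hippocampus. In KO the cortex samples lay above the hippocampus samples, whereas in WT the samples overlapped, and WT hippocampus replicate 2 stood 0.40 above replicate 1. The difference was 0.46 ± 0.16 in KO (limma, adjusted p = 0.107, 95% interval 0.08 to 0.83) and 0.24 ± 0.16 in WT (limma, adjusted p = 0.375, 95% interval -0.14 to 0.61), so neither passed. The second Dbp probe read 15.19 and 15.04 in KO cortex, 15.15 and 15.30 in WT cortex, 14.53 and 14.50 in KO hippocampus, and 14.71 and 14.98 in WT hippocampus. On that probe the cortex samples lay above the hippocampus samples in both genotypes. In a limma fit of all 26016 probes its difference was 0.60 ± 0.12 in KO (adjusted p = 0.0192), 0.38 ± 0.12 in WT (adjusted p = 0.0833) and 0.49 ± 0.09 over both (adjusted p = 0.00965). The probes of Dbp thus gave the same direction but differed in whether they passed.

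Tef, the third PAR bZIP factor, had log2 levels of 16.36 and 16.32 in KO cortex, 16.10 and 16.28 in WT cortex, 16.30 and 16.34 in KO hippocampus, and 16.21 and 16.11 in WT hippocampus. Cortex and hippocampus overlapped in both genotypes. The difference was 0.02 ± 0.09 in KO (95% interval -0.19 to 0.22) and 0.03 ± 0.09 in WT (95% interval -0.18 to 0.24). A difference anywhere within these intervals remains compatible with the data.

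Nr1d1, which encodes the nuclear receptor that represses Arntl, had log2 levels of 11.18 and 11.10 in KO cortex, 10.82 and 10.92 in WT cortex, 10.55 and 10.55 in KO hippocampus, and 10.63 and 10.62 in WT hippocampus. The cortex samples lay above the hippocampus samples in both genotypes. The difference was 0.59 ± 0.07 in KO, a 1.5-fold change (limma, adjusted p = 0.00253), and 0.24 ± 0.07 in WT, which did not pass (limma, adjusted p = 0.0711, 95% interval 0.07 to 0.41). The KO call was lost without cortex replicate 1. The genotypes' difference in this gap, 0.35 ± 0.11, did not pass either (limma, adjusted p = 1, unadjusted p = 0.0245). KO cortex alone also held the high sums of choroid plexus markers in both of its samples, and their part in the Nr1d1 values was not tested.

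Per1, which encodes a repressor of the activator pair and also responds quickly to stimuli in neurons, had log2 levels of 13.89 and 13.53 in KO cortex, 13.29 and 13.56 in WT cortex, 13.36 and 13.14 in KO hippocampus, and 13.28 and 13.23 in WT hippocampus. Every cortex sample lay above every hippocampus sample of its genotype, but the samples of KO cortex differed by 0.36 and those of WT cortex by 0.27. The difference was 0.47 ± 0.16 in KO (limma, adjusted p = 0.103) and 0.17 ± 0.16 in WT (limma, adjusted p = 0.527), so neither passed.

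Per2, the closest relative of Per1 in the loop, had log2 levels of 9.10 and 9.07 in KO cortex, 9.07 and 8.87 in WT cortex, 9.09 and 9.06 in KO hippocampus, and 9.02 and 8.93 in WT hippocampus. The tissues overlapped in both genotypes. The difference was 0.01 ± 0.08 in KO (95% interval -0.19 to 0.21) and -0.0043 ± 0.08 in WT (95% interval -0.20 to 0.19). Per3, the third period gene, was measured above background in KO, where it had 7.29 and 7.61 in cortex and 7.34 and 7.41 in hippocampus. That difference was 0.07 ± 0.12 (95% interval -0.22 to 0.36). In WT its spots read 7.72 and 7.84 in cortex and 7.84 and 7.65 in hippocampus, not well above background in any of them.

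Among the activators, Arntl had log2 levels of 11.48 and 11.66 in KO cortex, 11.57 and 11.52 in WT cortex, 11.48 and 11.51 in KO hippocampus, and 11.46 and 11.37 in WT hippocampus. The tissues overlapped in KO but not in WT. Its difference was 0.07 ± 0.09 in KO (limma, adjusted p = 0.658) and 0.13 ± 0.09 in WT (limma, adjusted p = 0.379). Clock, the usual partner of Arntl, had 10.42 and 10.36 in KO cortex, 10.44 and 10.30 in WT cortex, 10.53 and 10.50 in KO hippocampus, and 10.37 and 10.44 in WT hippocampus. The KO cortex samples lay below the KO hippocampus samples, by 0.13 ± 0.07 (limma, difference -0.13, adjusted p = 0.334), and the WT samples overlapped (difference -0.03 ± 0.07, adjusted p = 0.816).

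Npas2, the paralogue of Clock known from forebrain, had log2 levels of 8.20 and 8.22 in KO cortex, 7.93 and 7.86 in WT cortex, and 7.74 and 7.90 in KO hippocampus. In WT hippocampus its spots read 7.51 and 7.54, not well above background. The KO difference was 0.40 ± 0.08, a 1.32-fold change with both tissues above background (limma, adjusted p = 0.016). The measured WT difference was 0.37 (limma, adjusted p = 0.0209). A bound that has no p-value of its own put WT cortex 1.28-fold above WT hippocampus. In it, the lowest signal among probes well above background stands for a WT hippocampus sample that read below that signal. It is no minimum, since the Per3 spots of WT hippocampus read 7.84 and 7.65 and were not well above background. This bound and the others below rest on single channels after loess and quantile normalisation and are open to dye bias. The KO call stayed only without hippocampus replicate 2 among the 4 fits that left out an array, and so did the WT call.

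**Figure D2:**
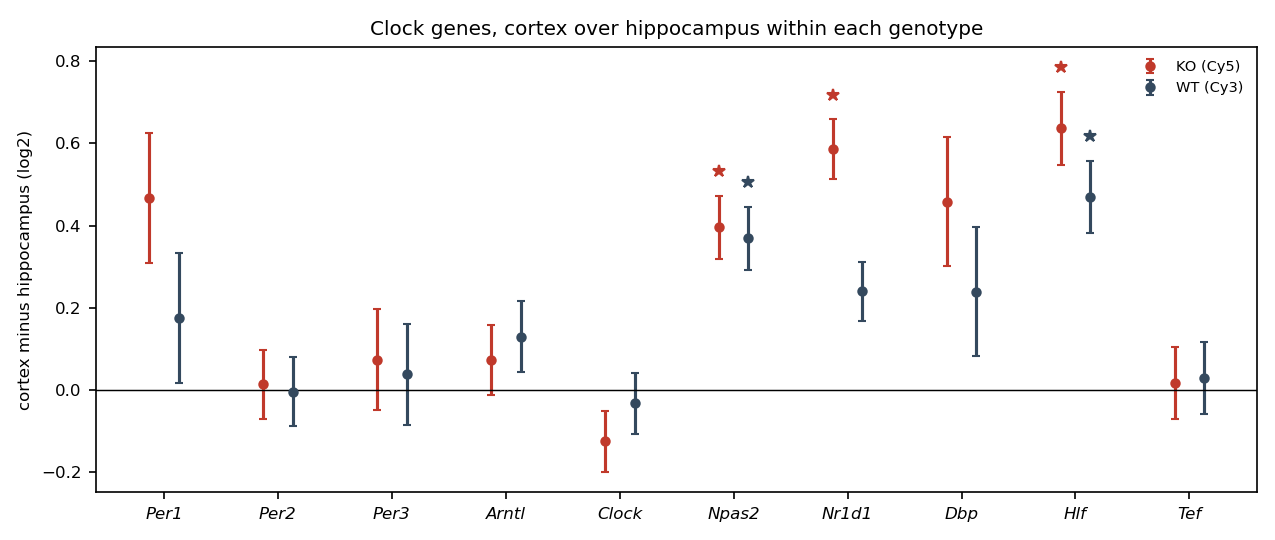
Cortex minus hippocampus difference (log2, vertical axis) of each clock gene within KO and within WT. Points are limma estimates, bars their SE, and stars mark an adjusted p under 0.05; Hlf and Npas2 have a star in both genotypes, Nr1d1 in KO, and Per3 in WT rests on spots not well above background.

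Samples of the tissues did not overlap for 6 of 10 clock genes in KO, with Clock lower in cortex and the others higher, where 60.4% of all genes tested did not overlap. In WT 5 of 10 did not overlap, all higher in cortex, where the share of all genes was 55.9%. Per3, not well above background in any WT sample, has no place in an order over both genotypes. For the others the order was Hlf, Nr1d1, Npas2 (by its measured values, with WT hippocampus not well above background), Dbp (0.35 ± 0.12), Per1 (0.32 ± 0.12), Arntl (0.10 ± 0.07), Tef (0.02 ± 0.07), Per2 (0.0042 ± 0.06) and Clock (-0.08 ± 0.06). Neighbours in this order differed by less than the sum of their SEs, except Hlf from Nr1d1 and Per1 from Arntl, and these steps were not tested.

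The rest of the clock was read from 25 further genes, all of them tested: 7 were higher in cortex and 1 lower in KO, and 3 were higher and 1 lower in WT. Of all genes tested, 7.73% were called higher and 7.35% lower in KO, and 7.35% higher and 7.84% lower in WT. The median difference of the 25 was 0.12 in KO and 0.10 in WT. Rorb, which encodes an activator at ROR elements, was higher in cortex by 1.13 ± 0.08 in KO (limma, adjusted p = 0.000346) and 1.004 ± 0.08 in WT (limma, adjusted p = 0.000536), and it also stands in the list of cortex markers. Id2, which encodes an inhibitor of bHLH factors, was higher by 0.78 ± 0.11 in KO (limma, adjusted p = 0.00371) and 0.79 ± 0.11 in WT (limma, adjusted p = 0.00361). The casein kinases that phosphorylate PER proteins went opposite ways. Csnk1e was higher in cortex by 0.38 ± 0.07 in KO (limma, adjusted p = 0.0106) and 0.37 ± 0.07 in WT (limma, adjusted p = 0.0109), and Csnk1d was lower in WT (-0.49 ± 0.08, adjusted p = 0.00782), with -0.28 ± 0.08 in KO (adjusted p = 0.0591). The Csnk1e calls in both genotypes and the Csnk1d call in WT were lost without cortex replicate 1, without cortex replicate 2 and without hippocampus replicate 1. Those of Rorb stayed in all 4 fits that left out an array. The Id2 call was lost in KO without cortex replicate 1 (0.70) and in WT without cortex replicate 2 (0.76).

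The other calls were made in KO alone. Timeless, named after the fly partner of period, was higher by 0.41 ± 0.09 (limma, adjusted p = 0.0223), and Wee1, a cell cycle kinase driven through E-boxes in mouse liver, by 0.30 ± 0.07 (limma, adjusted p = 0.0234). Ciart, named Gm129 on the array and a repressor of the activator pair, was higher by 0.78 ± 0.19 (limma, adjusted p = 0.0367). Usp2, a deubiquitinase, was higher by 0.38 ± 0.09 (limma, adjusted p = 0.0377), and Arntl2, the paralogue of Arntl, was lower (-0.43 ± 0.11, adjusted p = 0.0397). In WT the same genes had differences of 0.31 ± 0.09 for Timeless, 0.22 ± 0.07 for Wee1, 0.50 ± 0.19 for Ciart, 0.25 ± 0.09 for Usp2 and -0.27 ± 0.11 for Arntl2, none of which passed. None of the 25 had a genotype difference in this gap that passed, where 0 of all 16358 genes tested passed. At an unadjusted p under 0.05 the count was 0 as well, where 4.52% of all genes were under it. In KO, the calls of Timeless, Wee1, Ciart, Usp2 and Arntl2 were lost in each of the 4 fits that left out an array.

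**Figure D3:**
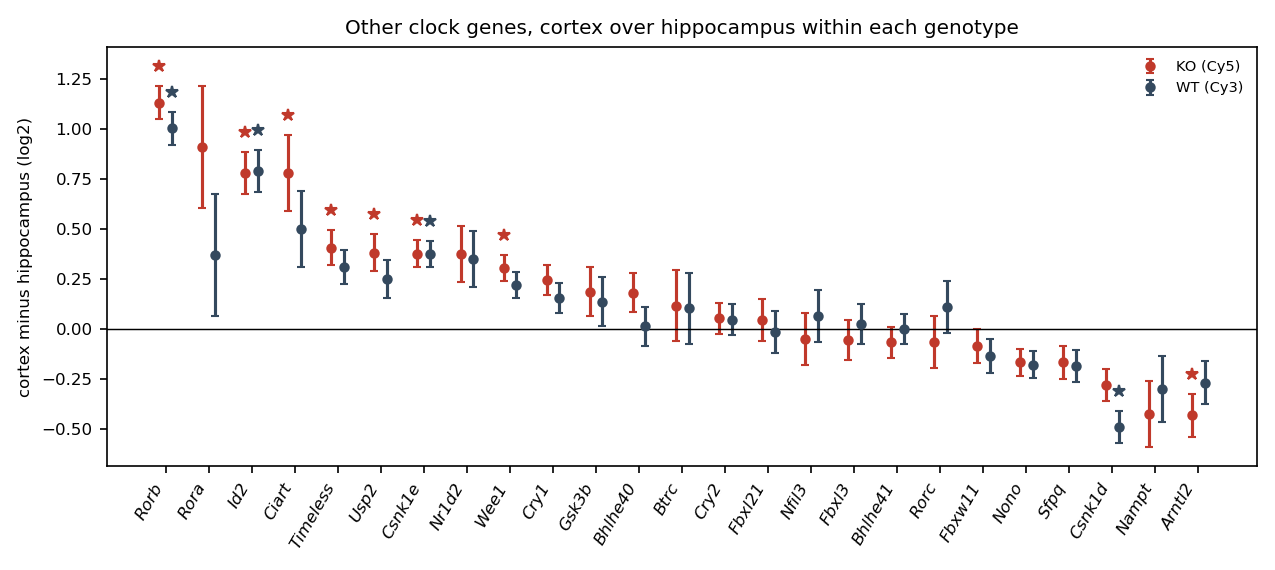
Cortex minus hippocampus difference (log2, vertical axis) of the 25 further clock genes within KO and within WT, ordered by the KO value. Points are limma estimates, bars their SE, stars mark an adjusted p under 0.05, and Rorb, with 1.13 in KO and 1.004 in WT, is highest.

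Between genotypes, no clock gene passed in cortex or in hippocampus alone, and 2 of 10 passed in the mean of both tissues, where 11% of all genes were called. The counts in single tissues were 0 of 10 by limma in each, with 3 at an unadjusted p under 0.05 in each, where 21.2% of all genes in cortex and 23.8% in hippocampus were under it, and 0.0611% of all genes were called in cortex and 0.0183% in hippocampus. The 2 genes were Npas2, higher in KO, and Per3, lower in KO by its measured ratio, against 7.18% of all genes called higher and 3.85% lower (1174 higher of 1803 called, and 4610 of 10220 with arrays centred on their median in place of loess). They were also the only members with a group not well above background, and both calls were lost in each of the 4 fits that left out an array. The median KO over WT log2 ratio of the 10 genes was 0.08, and that of all genes tested was 0.03.

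Npas2 had KO over WT log2 ratios of 0.27 and 0.36 in cortex and 0.23 and 0.35 in hippocampus, positive on all 4 arrays. In cortex, where both groups were above background, the ratio was 0.32 ± 0.07 (limma, adjusted p = 0.131). In hippocampus the measured ratio was 0.29 (limma, adjusted p = 0.123), which did not pass, and the mean of both tissues was called (limma, adjusted p = 0.0387). The bound for KO over WT hippocampus, formed as above, came to 1.21-fold. It is no minimum between dyes, since with arrays centred on their median the hippocampus ratio was -0.36. With arrays centred on their median in place of loess the mean ratio of Npas2 was -0.27, a change of direction. Its mean signals before normalisation were 371.5 and 378.6 intensity units in KO cortex, 356.3 and 346.7 in WT cortex, 230.6 and 258.2 in KO hippocampus and 319.4 and 320.5 in WT hippocampus, where negative controls had medians of 247 to 263 in the WT channel.

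Per3 had KO over WT log2 ratios of -0.43 and -0.23 in cortex and -0.49 and -0.24 in hippocampus, negative on all 4 arrays (limma, mean of both tissues, adjusted p = 0.0483). The KO samples were above background and the WT samples were not, although the normalised WT signal was the higher one, so the bound gives no fold. Its signals before normalisation were 178.6 and 230.2 intensity units in KO cortex, 350.1 and 356.0 in WT cortex, 170.4 and 177.7 in KO hippocampus and 363.4 and 336.4 in WT hippocampus.

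Hlf had ratios of -0.13 and -0.08 in cortex and -0.33 and -0.21 in hippocampus, negative on all 4 arrays, with a mean of -0.19 ± 0.05 that did not pass (limma, adjusted p = 0.0724). Per2 had 0.04 and 0.20 in cortex and 0.07 and 0.13 in hippocampus (mean 0.11 ± 0.05, adjusted p = 0.214). Tef had 0.26 and 0.04 in cortex and 0.09 and 0.24 in hippocampus (mean 0.16 ± 0.06, adjusted p = 0.158). These, with Npas2 and Per3, were the genes with 1 sign on all 4 arrays, 5 of 10 or 50%, where 45.8% of all genes tested kept their sign.

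The remaining genes changed sign between arrays. Per1 had ratios of 0.60 and -0.03 in cortex and 0.07 and -0.09 in hippocampus, so cortex array 1 alone set its cortex mean of 0.28 ± 0.16 (limma, adjusted p = 0.378). Without that replicate the Per1 cortex ratio was -0.03. Ciart likewise had 0.60 on cortex array 1, and -0.13, 0.03 and -0.13 on cortex array 2 and the hippocampus arrays. Dbp had 0.17 and -0.27 in cortex and -0.05 and -0.49 in hippocampus, and its second probe 0.04 and -0.26 in cortex and -0.17 and -0.48 in hippocampus. Both probes of Dbp gave the lowest ratio on hippocampus array 2 and the highest on cortex array 1. On hippocampus array 2 the choroid plexus markers had a median ratio of -2.92 and the thalamus markers of -1.13, and their part in the Dbp value was not tested. Nr1d1 had 0.37 and 0.18 in cortex and -0.08 and -0.07 in hippocampus (limma, cortex 0.27 ± 0.07, adjusted p = 0.16; hippocampus -0.07 ± 0.07, adjusted p = 0.58). Arntl had -0.09 and 0.14 in cortex and 0.02 and 0.15 in hippocampus, and Clock had -0.02 and 0.06 in cortex and 0.16 and 0.06 in hippocampus.

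**Figure D4:**
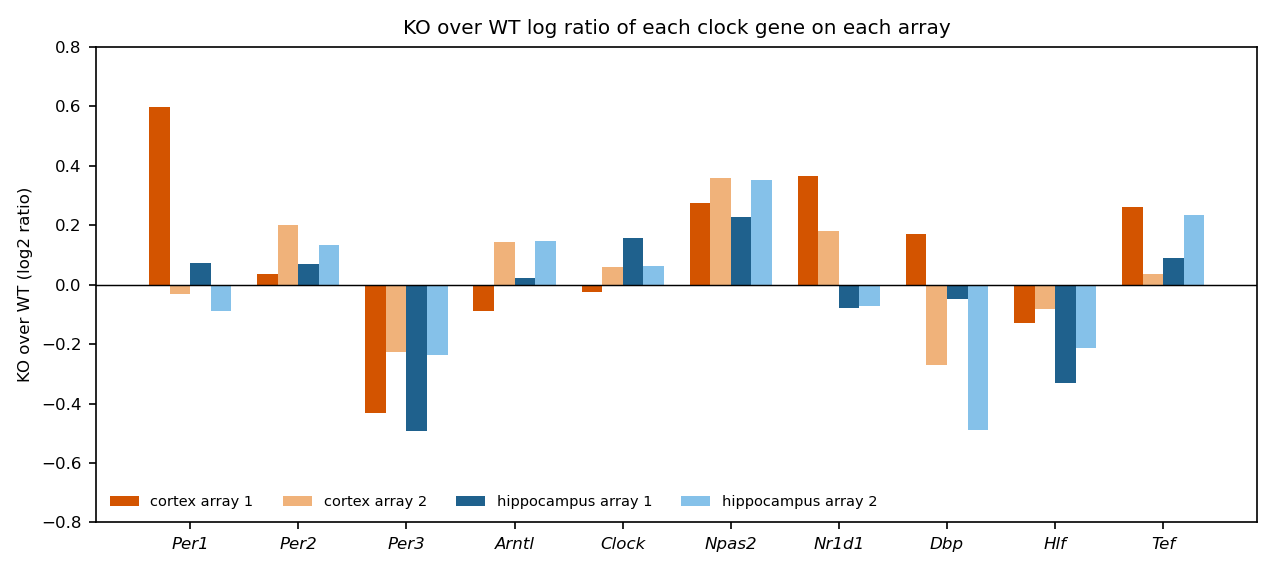
KO over WT log2 ratio (vertical axis) of each clock gene on each of the 4 arrays, with 1 bar per array. Npas2 is above 0 and Per3 below 0 on all arrays, and Per1 reaches 0.60 on cortex array 1 and lies between -0.09 and 0.07 on the others.

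The arms of the loop were set against each other on each array. The reason is that transcripts of Arntl and of the E-box-driven genes run out of phase over the day in mouse tissues. The mean KO over WT log2 ratio of the 3 activators (Arntl, Clock and Npas2) was 0.05 and 0.19 in cortex and 0.14 and 0.19 in hippocampus. That of the 5 E-box-driven genes (Per1, Per2, Per3, Nr1d1 and Dbp) was 0.15 and -0.03 in cortex and -0.10 and -0.15 in hippocampus. The arms thus had opposite signs on 3 of 4 arrays, and cortex array 1 had the E-box-driven genes above the activators by 0.09 while the other arrays had them below, by -0.22, -0.23 and -0.34.

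The E-box-driven genes did not share a sign. Of the 5 E-box-driven genes, 4 were above 0 on cortex array 1, 2 on cortex array 2, 2 on hippocampus array 1 and 1 on hippocampus array 2. Of the 3 activators, 1 was above 0 on cortex array 1 and 3 on each of the other arrays. Without Npas2 and Per3, a setting chosen after seeing the data, the difference between arms was 0.35 and -0.08 in cortex and -0.09 and -0.23 in hippocampus. The E-box-driven mean was then 0.29, 0.02, 0.00 and -0.13, so that the sign of that arm changed on cortex array 2 and hippocampus array 1. The activator mean was then -0.06 on cortex array 1 and 0.10, 0.09 and 0.10 on the others, in the same order, so the arms had opposite signs on 2 arrays, cortex array 1 and hippocampus array 2. No test was run on these means, because 2 arrays per tissue share their dye assignment. Whether KO and WT mice were sampled at different times was not tested, since the labels give no time.

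**Figure D5:**
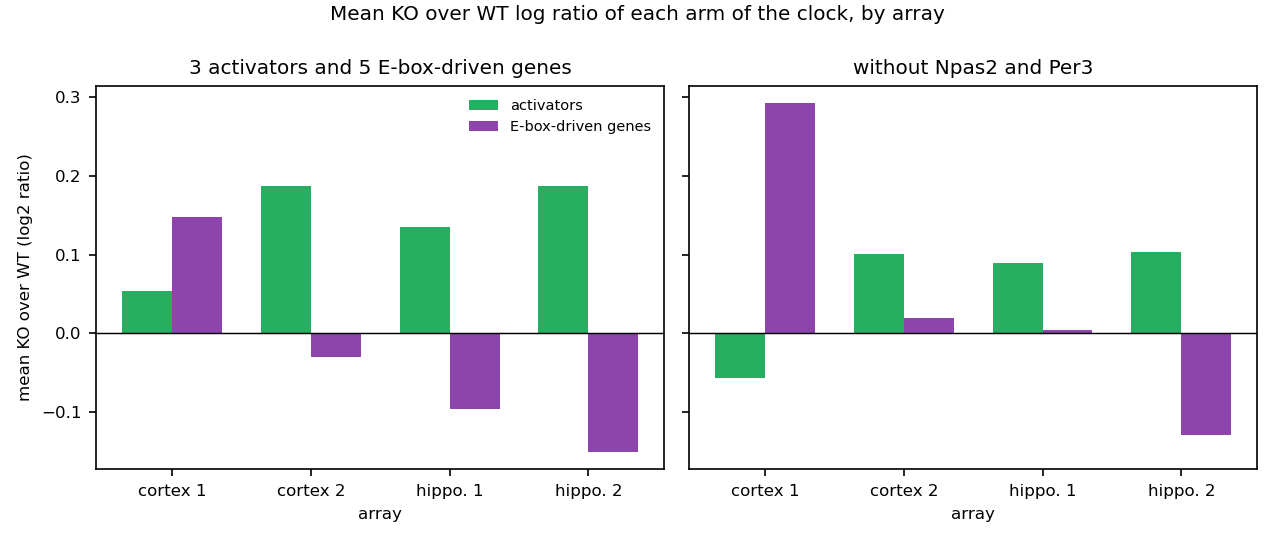
Mean KO over WT log2 ratio (vertical axis) of the activators and of the E-box-driven genes on each array, for all 8 genes on the left and without Npas2 and Per3 on the right. On the left the E-box-driven mean is 0.15 on cortex array 1 and -0.15 on hippocampus array 2.

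The spread between the samples of a group was read gene by gene. In KO cortex, replicate 2 minus replicate 1 was -0.36 for Per1, -0.19 for Dbp, -0.08 for Nr1d1, -0.03 for Per2, 0.33 for Per3, -0.06 for Clock and 0.18 for Arntl. In WT cortex it was 0.27 for Per1, 0.25 for Dbp, 0.10 for Nr1d1, -0.19 for Per2, 0.12 for Per3, -0.14 for Clock and -0.05 for Arntl. Within both cortex groups Arntl had the opposite sign to Per1, Dbp and Nr1d1, but Clock, its partner, had the opposite sign to Arntl in KO, Per2 the same sign as Arntl in WT and Per3 the same sign as Arntl in KO. In hippocampus, Per1 differed by -0.22 in KO and -0.06 in WT, Dbp by -0.04 in KO and 0.40 in WT, Nr1d1 by 0.0029 in KO and -0.0043 in WT, and Arntl by 0.03 in KO and -0.10 in WT. Over all genes tested, the median absolute difference between samples of a group was 0.08 to 0.12 and its 95th percentile 0.36 to 0.51, and none of the values named here exceeded the 95th percentile of its group.

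Of the 25 further clock genes, none passed between genotypes in cortex or in hippocampus by limma, with 6 at an unadjusted p under 0.05 in cortex and 4 in hippocampus, which is 24% and 16% of them, where 21.2% and 23.8% of all genes were under it. In the mean of both tissues 3 passed, all higher in KO, which is 12% of them, where 11% of all genes were called and 7.18% were higher. This count and share include Cry1, which was well above background in 3 samples, all of them KO. Cry1 thus passed the filter on dim probes only through the genotype in which it was called higher. Csnk1d had ratios of 0.60 and 0.52 in cortex and 0.29 and 0.41 in hippocampus (mean 0.45 ± 0.05, adjusted p = 0.0255). Rorb had 0.40 and 0.59 in cortex and 0.42 and 0.32 in hippocampus (mean 0.43 ± 0.06, adjusted p = 0.0302). Cry1, the repressor that pairs with PER proteins, had 0.50 and 0.48 in cortex and 0.50 and 0.30 in hippocampus (adjusted p = 0.0284), but it was not well above background in any WT sample and the bound gives no fold. With arrays centred on their median the Cry1 ratio was -0.88. The calls of Csnk1d, Rorb and Cry1 were lost in each of the 4 fits that left out an array, and those of Csnk1d and Rorb also with the mean of a gene's probes (0.12 for Csnk1d and 0.16 for Rorb).

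Across the 8 samples, centred within each dye, the genes whose pattern was most like that of Dbp were Gfpt2 (Pearson r = 0.992), Ghr (0.984), Tmem41a (0.982), Kctd9 (0.979) and Fzd2 (0.979). They were ranked among the 8325 genes whose SD was at least that of Dbp divided by 2, with no upper limit. Among clock genes Nr1d1 (0.857), Per1 (0.821) and Hlf (0.815) were most like it, and Clock (-0.578) least. For Arntl the most alike were Zfp534 (0.991), Pigr (0.983), Dcc (0.970), Nmnat2 (0.967) and Fam133b (0.963), of the 15991 genes kept by the same rule for Arntl. Its likeness to Per3 was 0.743, to Nr1d1 0.470 and to Dbp 0.153. These values describe 8 points that share 4 arrays and 2 tissues, and most of them contain the tissue difference.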

How the data were processed

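Two-channel scanner files of 8 samples on 4 arrays were used. Per the file headers, the deposited intensity values (mean signal and local background of each spot) were made with Feature Extraction 10.1.1.1 on mm9 positions, and they are not normalised. The log2 values of the deposited table were made by the authors, and their role for limma is not given in the sources used here; they served as an alternative only. The clock genes and the gene lists were chosen with earlier results of these data known. Background was corrected with normexp (offset 50), outlying local backgrounds being replaced by the array median, a choice made after seeing the data. Loess (span 0.3) followed within arrays, with the 1377 control spots at weight 0, then Aquantile for single channels. Flagged outlying spots were left out, each gene was read from its brightest probe, and genes well above background in both samples of at least 1 group were kept (16387, less 29 for outlying spots). limma 3.58.1 in R 4.3.3 fitted the log ratios for KO over WT (2 residual and 2.62 prior degrees of freedom) and lmscFit the tissue comparisons within a genotype (4 and 2.91, intraspot correlation 0.192), with Benjamini-Hochberg adjustment over 16358 genes and a threshold of 0.05. The 10 clock genes were named in every comparison, and of the 25 further genes up to 8 that passed; patterns most like Dbp and Arntl were ranked by Pearson correlation, 5 genes each. Fits were tested on simulated data. Alternatives covered the background, normalisation, filter, probe rule, eBayes options, replicate block and each array left out.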

Additional observations from a re-analysis of the deposited data

Results flagged for a closer look

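The measured KO over WT ratio of Nr1d1 was above 0 on both cortex arrays (0.37 and 0.18) and below 0 on both hippocampus arrays (-0.08 and -0.07). Neither tissue passed alone (limma, adjusted p = 0.16 in cortex and 0.58 in hippocampus). The measured difference was 0.35 (log2, cortex minus hippocampus). The difference did not pass over all genes (limma, adjusted p = 1, unadjusted p = 0.0245), and 0 of 16358 genes passed in this comparison. At an unadjusted p under 0.05 the share of all genes in this comparison was 4.52%. Nr1d1 was picked from the 10 genes by a rule on these same ratios: every array of one tissue on the opposite side of 0 from every array of the other. How many of all genes had that pattern was not counted, while 45.8% of them kept 1 sign on all 4 arrays.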

How the results depend on the processing

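Hlf and Nr1d1 were higher in cortex over both genotypes, and called, in all 15 alternatives run for that comparison, and Npas2 kept its direction there but lost its call with outlying local backgrounds kept and without either cortex replicate. Values are log2 differences or counts at an adjusted p under 0.05 and each value in the list is that under the alternative. The cause of the changes below was not tested. With outlying local backgrounds kept, KO over WT called 0 genes in cortex, 7 in hippocampus and 3 in their mean, and 0 clock genes in their mean. The sign turned for Arntl (-0.13), Clock (-0.053) and Dbp (0.012) in cortex, for Arntl (-0.029) and Nr1d1 (-0.0058) in their mean, for Per2 (-0.038), Npas2 (-0.16), Hlf (-0.0081) and Tef (0.087) in their difference. Cortex over hippocampus called 1 clock gene in WT, 2 in KO and 4 over both genotypes. All genes called then numbered 1799, 2003 and 3623 of 16358, in the same order, against 2484, 2466 and 3741 in the main fit. The sign turned for Per2 (0.016), Per3 (-0.012), Clock (0.012) and Tef (-0.021) in WT, for Per2 (-0.022) and Arntl (-0.0071) in KO, for Per2 (-0.0031) over both genotypes. With Feature Extraction's processed signals, KO over WT called 130 genes in cortex, 356 in hippocampus and 1130 in their mean, and 1 clock gene in their mean. The sign turned for Per3 (0.13) and Clock (-0.046) in cortex, for Per1 (0.073) in hippocampus, for Per2 (-0.057) and Npas2 (-0.25) in their difference. The sign of cortex over hippocampus turned for Per2 (0.090), Per3 (-0.26) and Clock (0.0093) in WT, for Per3 (-0.049) over both genotypes. With arrays centred on their median in place of loess, KO over WT called 7136 genes in cortex, 8109 in hippocampus and 10220 in their mean, and 3 clock genes in cortex, 3 in hippocampus and 6 in their mean. The sign turned for Per2 (-0.078), Npas2 (-0.19), Dbp (0.36) and Hlf (0.085) in cortex, for Per1 (0.24), Per2 (-0.093), Npas2 (-0.36) and Dbp (0.17) in hippocampus, for Per2 (-0.085), Npas2 (-0.27), Dbp (0.26), Hlf (0.0019) and Cry1 (-0.88) in their mean. Cortex over hippocampus called 1 clock gene in WT, where 1849 of all genes were called. The sign turned for Tef (-0.022) in KO. With the deposited value table, KO over WT called 22 genes in cortex and 16 in hippocampus. The sign turned for Per1 (0.0029) in hippocampus, for Per3 (-0.016) in their difference. Without the filter on dim probes, KO over WT called 27 genes in cortex, 10 in hippocampus and 3239 in their mean. With genes required well above background in all 8 samples, KO over WT called 17 genes in cortex, 14 in hippocampus and 999 in their mean, and 0 clock genes in their mean. Cortex over hippocampus called 1 clock gene in WT, 2 in KO and 2 over both genotypes. With the mean of a gene's probes, KO over WT called 36 genes in cortex. Cortex over hippocampus then called 4 clock genes in KO and 4 over both genotypes, with Dbp among them. All genes called numbered 2394 in KO and 3803 over both genotypes. With an intensity trend and robust eBayes, KO over WT called 0 genes in cortex, 0 in hippocampus and 0 in their mean, and 0 clock genes in their mean. With the replicate block, KO over WT called 86 genes in cortex and 394 in hippocampus. Cortex over hippocampus called 5 clock genes in KO and 4 over both genotypes, where 2382 and 3544 of all genes were called. With single channels and the array as a random block, KO over WT called 664 genes in cortex, 984 in hippocampus and 3310 in their mean. With quantile normalisation of all channels, the sign of cortex over hippocampus turned for Per2 (0.012) in WT, for Per2 (-0.0084) and Tef (-0.010) in KO. With only the 4 samples of a genotype, cortex over hippocampus called 1477 genes in WT and 2623 in KO. Among them were 1 clock gene in WT and 4 in KO. No alternative moved a count in the difference of KO effects between tissues, where 0 genes passed by limma (391 to 1631 at an unadjusted p under 0.05). Where the intraspot correlation could not be estimated with an array left out (4 fits), that of all arrays was used. Leaving out each array in turn, KO over WT in cortex gave 0 genes called in every fit, -0.030 to 0.60 for Per1, -0.088 to 0.14 for Arntl, -0.024 to 0.059 for Clock and -0.27 to 0.17 for Dbp. KO over WT in hippocampus gave 0 to 1 genes called and -0.088 to 0.074 for Per1. KO over WT in their mean gave 0 to 1 genes called, 0 clock genes called in every fit, -0.019 to 0.30 for Per1 and -0.0020 to 0.11 for Arntl. KO over WT in their difference gave -0.023 to 0.61 for Per1, -0.17 to 0.058 for Arntl, -0.0010 to 0.44 for Dbp, -0.065 to 0.099 for Per2, -0.093 to 0.16 for Per3, -0.036 to 0.090 for Npas2 and -0.12 to 0.10 for Tef. Cortex over hippocampus in WT gave 713 to 1979 genes called, 0 to 2 clock genes called, -0.10 to 0.093 for Per2, -0.057 to 0.13 for Per3, -0.10 to 0.038 for Clock and -0.064 to 0.12 for Tef. Cortex over hippocampus in KO gave 623 to 1917 genes called, 0 to 3 clock genes called, -0.0023 to 0.028 for Per2, -0.0036 to 0.036 for Tef, -0.091 to 0.24 for Per3 and -0.018 to 0.16 for Arntl. Cortex over hippocampus over both genotypes gave 1482 to 3154 genes called, -0.052 to 0.060 for Per2, -0.058 to 0.17 for Per3 and -0.014 to 0.059 for Tef.

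The labels do not say that replicate numbers pair samples. Deviations of same-numbered samples from their group means correlated at 0.16 for log ratios, -0.085 for WT levels and 0.24 for KO levels. The replicate block raised calls of KO over WT in single tissues and those of clock genes between tissues in KO, as given above, with Per1 and Dbp passing in KO.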
